A study of Arabidopsis thaliana with 12 samples.

Results

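The warmth response of wild-type (WT) *Arabidopsis thaliana* was described across genes, as the difference between 3 RNA-Seq libraries of seedlings exposed to 29 °C for 6 h (WT 29 °C) and 3 libraries of seedlings kept at 23 °C (WT 23 °C). The 6 libraries were chosen by genotype and temperature label, and they are 6 of the 12 libraries of the series. Both groups are labeled as the Col-0 accession, with no transgene or mutation named. They were 4-day-old whole seedlings grown on solid medium under 16 h of light and 8 h of dark. The study used them to ask which transcripts respond to warmth in WT, beside seedlings that over-express the long noncoding RNA *APOLO* under the 35S promoter (OE *APOLO-1*, 1 line) and an insertional mutant of *VIM1* (*vim1-3*, 1 line), both at 23 °C. The hours of warmth come from the methods of the study, whereas the labels give the temperature alone. The methods describe 3 independent biological replicates, which the labels letter A, B and C. Whether both groups were harvested at the same hour of the day is not given in the sources used here. All 37336 genes in the count tables were considered, and 20664 of them passed the filter on low counts and were tested.

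Warm temperature below the heat stress range makes Arabidopsis seedlings elongate their hypocotyls, a growth response called thermomorphogenesis. The transcription factor PIF4 accumulates in the warmth and activates auxin biosynthesis genes such as *YUC8*, and auxin in turn induces *Aux/IAA* and *SAUR* genes, whose products feed back on auxin signalling and promote cell expansion. Severe heat engages heat shock factors, which induce chaperones. Jasmonate, salicylic acid and indole-derived phytoalexins belong to defence against wounding and pathogens, and their genes are kept low in undisturbed plants.

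WT 23 °C replicates A, B and C held 20975364, 18178149 and 8824476 counts on genes, and WT 29 °C replicates A, B and C held 16699515, 18232948 and 20977470. Expression levels are given in CPM, which is the count per 1000000 of library size after scaling with edgeR's TMM factors, and 3 values in a row stand for replicates A, B and C. WT 23 °C replicate A stood apart from replicates B and C. Of the genes tested, 16.9% differed by at least 2-fold between A and B and 13.3% between A and C, against 8.73% between B and C and at most 3.06% between any pair of WT 29 °C libraries. Replicate A differed by at least 2-fold from the single WT 29 °C libraries in 10.6% to 14.3% of genes, replicate B in 21.7% to 23.8%. The first principal component of the 6 libraries held 78.1% of the variance and placed the 23 °C libraries at -13.8, -126 and -83.6 and the 29 °C libraries between 70.1 and 79.9. *APOLO* had 1197 counts in replicate A, 2 and 1 in replicates B and C, 2, 8 and 5 at 29 °C, and between 4984 and 11720 in OE *APOLO-1*. The origin of the *APOLO* reads in replicate A was not tested, and the counts below are also given without this library where they moved.

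**Figure D1:**
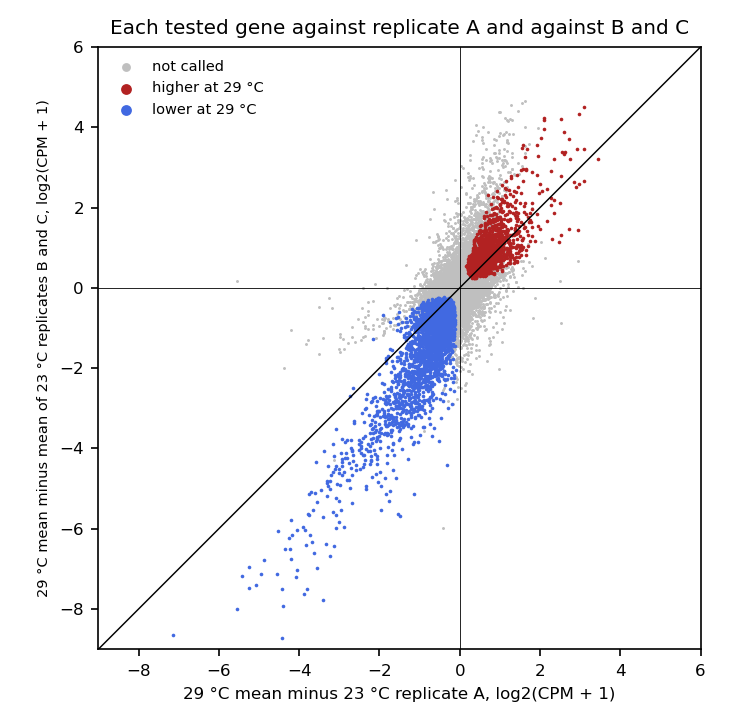
Difference in log2(CPM + 1) (WT 29 °C mean minus WT 23 °C), with replicate A alone as the 23 °C level on the x axis and the average of replicates B and C on the y axis, with 1 point for each of the 20664 genes tested, colored by its call in the fit of 12 libraries, and a diagonal of equal differences. Most genes lower at 29 °C lie under the diagonal, that is, their difference is smaller against replicate A.

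After 6 h at 29 °C, 1628 of the 20664 genes tested were upregulated (7.88%) and 2636 were downregulated (12.8%) at an adjusted p-value below 0.01. Among the gene lists described below, the median log2 fold change was highest for seed maturation genes (1.90), followed by root markers (1.28), seed or embryo markers (1.26) and aquaporins (1.00), and lowest for indole phytoalexins (-4.44), jasmonate output (-3.42) and touch and rapid stress genes (-3.01). Large changes were more often decreases. Among the downregulated genes 1502 (57.0%) changed by at least 2-fold and 467 (17.7%) by at least 8-fold, and among the upregulated genes 593 (36.4%) and 70 (4.3%) did. The median log2 fold change was 0.79 among upregulated and -1.17 among downregulated genes, and -0.01 over all genes tested. Each upregulated or downregulated gene changed in the same direction against each of the 3 WT 23 °C libraries taken alone. The genes were called on these same libraries, so this adds no separate support. The same goes for the lack of overlap between the groups in called genes. Scaling by upper quartiles in place of TMM moved the median of all genes to 0.09 and the share of upregulated genes among the calls from 38.2% to 51.2%.

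Of the 1628 upregulated and 2636 downregulated genes, 1606 and 2609 were protein-coding, 9 and 6 were long noncoding RNAs, and 29 downregulated genes had 0 counts in each 29 °C library. The number of genes called depended on WT 23 °C replicate A. Without this library 3179 of 20945 genes were upregulated (15.2%) and 3956 downregulated (18.9%), and these included 1562 of the 1628 and 2571 of the 2636. A fit of the 6 WT libraries alone took in only their own spread. It called 321 of 20145 genes upregulated (1.59%) and 688 downregulated (3.42%), and 321 and 687 genes were called in all 3 fits. Spread within a group was widest at WT 23 °C, with a median SD of 0.242 on log2 CPM. It was 0.148 for OE *APOLO-1*, 0.139 for WT 29 °C and 0.102 for *vim1-3*. The main p-values and standard errors rest on a spread shared by all groups, so they can understate the variation among WT 23 °C libraries. How far this accounts for the smaller counts in the WT fit was not tested. Every WT 29 °C library was above every WT 23 °C library for 4517 genes (21.9%) and below every one for 4556 genes (22%). For a called gene, the level in replicate A lay at a median of 0.21 of the way from the mean log2 level of replicates B and C to that of the 29 °C libraries where the gene was upregulated and 0.42 of the way where it was downregulated. Replicate A was the 23 °C library nearest to 29 °C for 55.9% of the upregulated and 81.6% of the downregulated genes. The medians against replicates A, B and C were 0.69, 0.86 and 0.80 for upregulated genes and -0.73, -1.32 and -1.34 for downregulated genes. What set replicate A apart was not tested.

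Against these background shares, 46% of the seed maturation genes, 53.3% of the aquaporins, 38.5% of the *Aux/IAA* genes and 33.3% of the *SAUR* genes were upregulated. Among chaperones of the HSP70, HSP90 and HSP101 classes and their partners 44.8% were upregulated and 13.8% downregulated. Of the indole phytoalexin genes 87.5% were downregulated, of the touch and rapid stress genes 85.7%, of the *JAZ* genes and the salicylic acid genes 66.7% each, and of the aliphatic glucosinolate genes 70.6%. In the same fit, in the lists of small heat shock proteins (5.56% up and 11.1% down), circadian clock genes (4.17% each) and nuclear photosynthesis genes (2.04% and 4.08%) the shares were below the background. This rested on few calls and did not hold in every fit. Without replicate A 5 of 18 small heat shock proteins fell, against 18.9% of all genes, and 4 of 24 clock genes rose, against 15.2%.

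**Figure D2:**
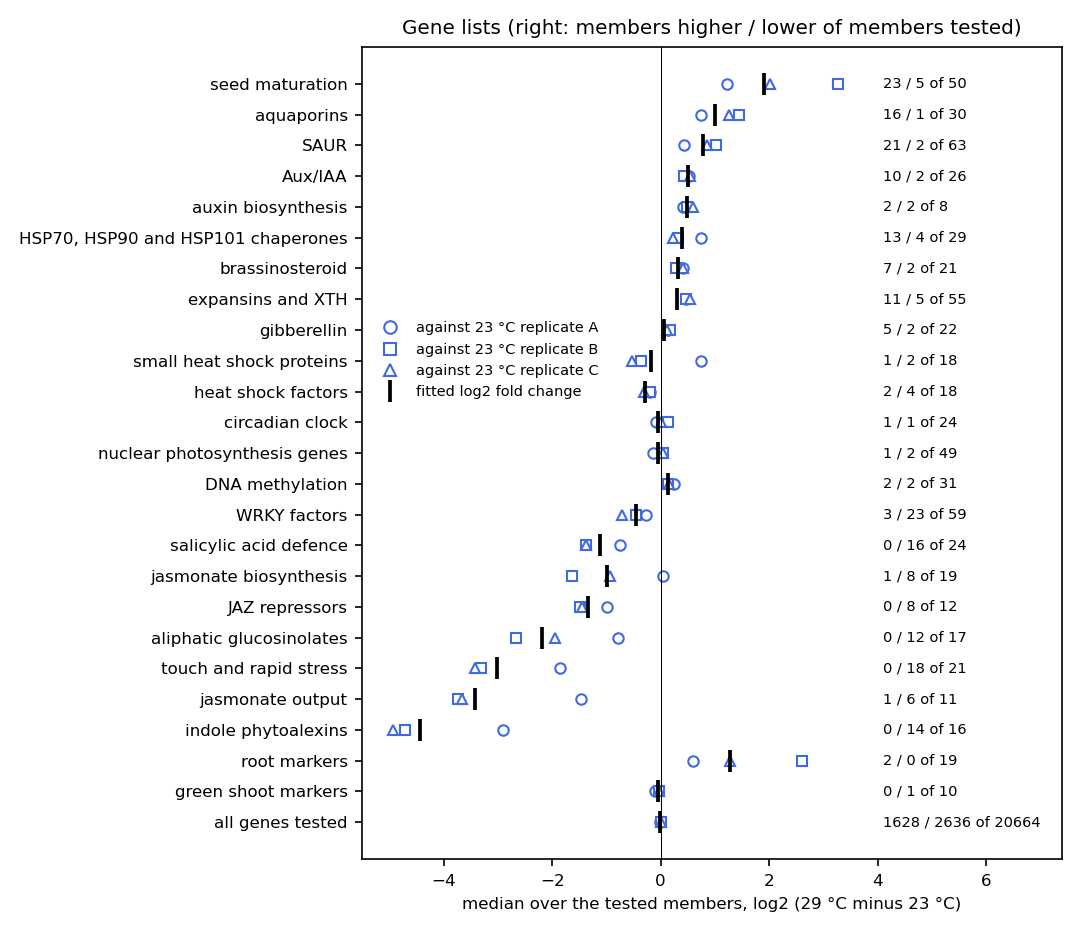
Median log2 difference (29 °C minus 23 °C) over the tested members of each gene list, from the fit of 12 libraries (black bar) and against each WT 23 °C library alone (open symbols), with the numbers upregulated and downregulated of those tested at the right. The lists of indole phytoalexins (median -4.44) and touch genes (-3.01) lie to the left of 0 and the seed maturation list (1.90) to the right, and the symbol of replicate A is the nearest to 0 in all 3.

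*PIF4* (AT2G43010, chromosome 2, 17886101 to 17889087 of TAIR10.1), the transcription factor that drives the growth response to warmth, was at 59.4, 84.7 and 75.3 CPM at 23 °C and 119, 125 and 123 CPM at 29 °C. The 29 °C libraries were all above the 23 °C libraries, among which replicate A was the lowest. The log2 fold change was 0.74 (SE 0.11, adjusted p = 0.000406), and the gene did not pass in the fit of the 6 WT libraries (adjusted p = 0.0143). Of the 29 tested regulators of thermomorphogenesis and light signalling, 5 were upregulated and 3 downregulated, with a median of -0.01 that equals the median of all genes. *HFR1* (log2 fold change 0.87, SE 0.20), which codes for an inhibitor of PIF proteins, *HY5* (log2 fold change 0.76), the bZIP factor of light-grown seedlings, *PIF1* (log2 fold change 0.37) and *PAR1* (log2 fold change 0.75) were the other upregulated members, of which the last pair was named after their values had been seen. *HYH*, the homolog of *HY5*, fell from 10.4 ± 1.27 CPM at 23 °C to 5.45 ± 0.195 CPM at 29 °C (mean ± SD, n = 3 in each group, as in all such pairs of values). *BBX22* moved in the same direction, from 127 ± 6.05 to 71.3 ± 2.07 CPM (log2 fold change -0.83, SE 0.07, adjusted p = 1.94e-05), and both genes were also called in the fit of the 6 WT libraries. Without replicate A 5 members of the list rose and 7 fell, and without replicate C 2 rose and 3 fell.

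Auxin biosynthesis genes changed in both directions. *YUC8* (AT4G28720), a flavin monooxygenase that makes auxin in the warmth, was at 7, 12.7 and 10.3 CPM at 23 °C and 26.4, 24.8 and 23.4 CPM at 29 °C. All 29 °C values lay above the highest 23 °C value, with a log2 fold change of 1.32 (SE 0.18, adjusted p = 0.000199). Replicate A was the lowest of the 23 °C libraries, and without it the adjusted p-value was 4.01e-06. Of the 8 genes tested, *YUC3* was upregulated as well (log2 fold change 1.60), from 1.68 ± 0.541 to 4.96 ± 0.788 CPM. *TAA1*, the aminotransferase that acts one step before the YUC enzymes, fell from 18.1 ± 1.23 to 6.56 ± 1.56 CPM (log2 fold change -1.46, SE 0.16, adjusted p = 5.83e-05). *YUC5* also fell, by a log2 fold change of -1.63 (SE 0.31, adjusted p = 0.00157). *YUC2*, the gene the study followed, was at 2.78, 3.04 and 1.68 CPM at 23 °C and 4.37, 3.38 and 4.17 CPM at 29 °C, with a log2 fold change of 0.63 (SE 0.30, adjusted p = 0.13). Its groups did not overlap, but the difference did not pass the threshold, and without replicate A the adjusted p-value was 0.104.

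Members of the auxin-induced families rose beside *YUC8*. Among 26 *Aux/IAA* genes, which code for short-lived repressors of the auxin response, 10 were upregulated and 2 downregulated, with a median log2 fold change of 0.50 (0.52, 0.43 and 0.55 against replicates A, B and C). *IAA19* (AT3G15540) was at 4.6, 7.44 and 5.41 CPM at 23 °C and 40.1, 46.1 and 36.5 CPM at 29 °C. *IAA6*, a close relative, was at 0.336, 0.41 and 0.601 CPM at 23 °C and 5.95, 6.36 and 5.22 CPM at 29 °C. In both genes the 3 libraries of each group stood close together and far from the other group, with log2 fold changes of 2.81 (SE 0.18, adjusted p = 4.02e-06) and 3.78 (SE 0.26, adjusted p = 5.36e-06), and replicate A did not lie towards the 29 °C libraries. *IAA34* rose (log2 fold change 1.53), whereas *IAA10* fell from 12.8 ± 3.99 to 4.2 ± 1.06 CPM (log2 fold change -1.59, SE 0.23, adjusted p = 0.00032). Among 63 *SAUR* genes, small auxin up RNAs that promote cell expansion, 21 were upregulated and 2 downregulated, with a median of 0.78 (0.44, 1.02 and 0.86 against A, B and C). *SAUR22* (AT5G18050) was at 1.73, 2.63 and 2.52 CPM at 23 °C and 14.3, 14.2 and 14.7 CPM at 29 °C, and its log2 fold change was 2.67 (SE 0.21, adjusted p = 9.78e-06). The 23 °C and 29 °C values were far apart and close together within each group. Its neighbor *SAUR19* rose from 2.57 ± 0.448 to 9.7 ± 0.692 CPM (log2 fold change 1.94), and 2.5% of its 75-base stretches occur elsewhere in the genome. *SAUR68* (AT1G29490) and *SAUR61*, both low at 23 °C, reached 3.8 ± 1.25 CPM and 2.75 ± 0.32 CPM. Without replicate A, 12 *Aux/IAA* and 33 *SAUR* genes were upregulated, and in the 6 WT libraries alone 5 and 12 were. Of 21 *ARF*, *TIR1* and *AFB* genes, which code for auxin response factors and auxin receptors, 4 rose and 2 fell, among them *ARF10* (log2 fold change 0.61) and *AFB1* (log2 fold change 0.46) upwards and *ARF4* (log2 fold change -0.70) and *ARF6* (log2 fold change -0.54) downwards. Without replicate A 4 of these rose and 5 fell, and without replicate C 2 and 2 did. Of 14 auxin transport genes *LAX2*, an influx carrier, was the 1 that passed (log2 fold change 0.69, SE 0.16, adjusted p = 0.00598), whereas 3 rose and 4 fell without replicate A. Without replicate C, or without any 1 of the 29 °C libraries, edgeR called 0 of the 14, with 4 to 5 at an unadjusted p-value below 0.05, and DESeq2 on 12 libraries called 4. *GH3.17*, which conjugates auxin to amino acids, rose from 28.1 ± 0.676 to 56.1 ± 4.89 CPM, and of 10 *GH3* genes 1 rose and 2 fell, with 3 and 2 without replicate A.

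The promoter windows of *YUC8* and *SAUR22* are shown because these genes stand for the auxin response in the values above. Each is 300 bases of the RefSeq genome TAIR10.1, from 250 bases before to 50 bases after the annotated transcript start, written 5′ to 3′ along the gene at chr4:14192319-14192618 (plus strand) and chr5:5975038-5975337 (minus strand). Capitals mark the letters CATGTG or its reverse complement CACATG, an E-box that PIF factors are known to bind.
YUC8: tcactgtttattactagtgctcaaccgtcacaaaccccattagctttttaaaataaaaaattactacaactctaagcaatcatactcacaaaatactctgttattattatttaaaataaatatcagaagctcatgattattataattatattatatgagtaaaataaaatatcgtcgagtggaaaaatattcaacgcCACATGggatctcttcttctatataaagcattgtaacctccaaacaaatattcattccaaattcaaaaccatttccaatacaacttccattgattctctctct
SAUR22: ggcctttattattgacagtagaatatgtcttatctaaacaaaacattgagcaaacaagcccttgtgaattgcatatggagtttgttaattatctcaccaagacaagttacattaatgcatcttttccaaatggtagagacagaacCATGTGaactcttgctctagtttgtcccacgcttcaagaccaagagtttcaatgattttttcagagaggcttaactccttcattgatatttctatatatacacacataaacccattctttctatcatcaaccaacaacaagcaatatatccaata
The E-box begins at base -53 relative to the start of *YUC8* and at base -105 for *SAUR22*. The E-box letters occurred in the windows of 12.9% of all 20561 tested genes with a window, 16.2% of the upregulated and 13.7% of the downregulated genes, and in 42.9% of the *SAUR* genes and 26.9% of the *Aux/IAA* genes. A match is a description of the sequence and does not show that a factor binds there.

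**Figure D3:**
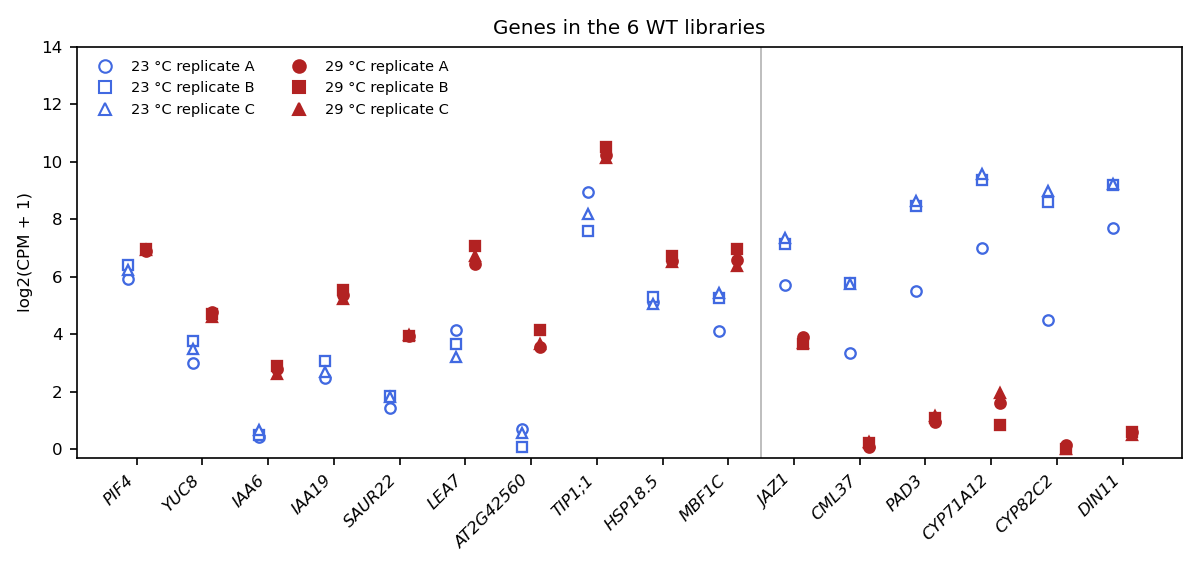
Expression level as log2(CPM + 1) of 16 named genes in each of the 6 WT libraries, with open symbols for 23 °C, filled symbols for 29 °C and a shape for each replicate letter. The 10 genes left of the line are higher in every 29 °C library and the 6 to its right lower, and for those 6 the 23 °C symbol nearest to 29 °C is replicate A.

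Of 21 brassinosteroid genes 7 rose and 2 fell, with *BAS1*, which inactivates brassinosteroids, from 7.42 ± 1.71 to 18.2 ± 2.52 CPM (log2 fold change 1.29, SE 0.17, adjusted p = 0.000175) and *DWF1*, a biosynthetic enzyme, from 299 ± 6.74 to 466 ± 32.8 CPM. *BR6OX2*, a late biosynthetic enzyme, rose (log2 fold change 0.66) and *BAK1*, the co-receptor, fell (log2 fold change -0.65). Without replicate A 8 of 22 brassinosteroid genes rose and 3 fell, and without replicate C 4 rose and 1 fell. Of 22 gibberellin genes 5 rose and 2 fell, while without replicate A 6 and 5 did and without replicate C 3 and 1. *GA20OX1*, which catalyzes late steps towards active gibberellin, was at 0.24, 0.937 and 0.48 CPM at 23 °C and 2.33, 2.21 and 3.18 CPM at 29 °C, and its values did not overlap (log2 fold change 2.22, SE 0.40, adjusted p = 0.00133). *GA2OX6*, which inactivates gibberellin, fell (log2 fold change -1.45), and *GID1B*, a gibberellin receptor, fell from 21.1 ± 5.9 to 10.5 ± 0.451 CPM. For *GA2OX6* the level in replicate A was 9.97 CPM, close to the 8.22 ± 1.13 CPM at 29 °C, while B and C stood at 28.3 and 29.7. Of 55 expansins and xyloglucan enzymes, which loosen and remodel the cell wall, 11 rose and 5 fell, with a median of 0.31, whereas without replicate A 23 of 56 rose and 14 fell, and without replicate C 4 rose and 4 fell. *XTH18*, a xyloglucan enzyme, fell from 116 ± 27.4 to 32.1 ± 6.49 CPM (log2 fold change -1.85, SE 0.18, adjusted p = 3.81e-05), and *EXLB1* fell with replicate A (5.23 CPM) well below replicates B and C (29.8 and 20.5 CPM).

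Of 30 aquaporins tested 16 were upregulated and 1 was downregulated, with a median log2 fold change of 1.00 (0.74, 1.45 and 1.26 against replicates A, B and C). Their summed level was 11400, 9950 and 9680 CPM at 23 °C and 20300, 22900 and 19000 CPM at 29 °C, and it ran from 12800 to 16700 CPM in OE *APOLO-1* and from 11700 to 13100 CPM in *vim1-3*, both at 23 °C. *TIP1;1*, a channel of the vacuole membrane, was at 490.3, 192 and 289.9 CPM at 23 °C and 1205, 1451 and 1135 CPM at 29 °C. It was the highest of the named channels, and the 29 °C values lay far above the 23 °C values, among which replicate B was the lowest (log2 fold change 1.96, SE 0.28, adjusted p = 0.000442). *PIP2;3*, a channel of the plasma membrane, was at 34, 13.1 and 19 CPM at 23 °C and 85, 112 and 87.7 CPM at 29 °C, with 10.2% of its 75-base stretches found elsewhere in the genome. *TIP3;1*, which is known from seeds, rose from 0.667 ± 0.644 to 11.1 ± 2.13 CPM. *SIP1;2* was the member that fell, from 25.2 ± 10.8 to 3.71 ± 0.382 CPM (log2 fold change -2.75, SE 0.31, adjusted p = 9.8e-05). Without replicate A 22 aquaporins rose and 1 fell, and in the 6 WT libraries alone 9 rose and 1 fell.

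Of 19 root markers tested 2 rose (10.5%, against 7.88% of all genes), although their summed level was higher in each 29 °C library than in each WT 23 °C library. In whole seedlings more cells of a type cannot be told apart from more RNA per cell. The markers summed to 257, 84.5 and 175 CPM at 23 °C and to between 373 and 429 CPM at 29 °C, and OE *APOLO-1* and *vim1-3* were at 400 to 465 and 337 to 391 CPM. WT 23 °C replicate B was thus the lowest of the libraries. The root hair gene *EXPA7* was at 14.8, 0.117 and 7.09 CPM at 23 °C and 49.8, 57.9 and 37.3 CPM at 29 °C. The root hair gene *LRX1* was at 10.8, 0.117 and 6.25 CPM at 23 °C and 28.2, 34.3 and 23.4 CPM at 29 °C. Both were near 0 in replicate B, and neither difference passed the test (adjusted p = 0.0211 and 0.0318). *BRN2*, a root cap factor, was among those that passed the test (log2 fold change 3.09). With edgeR the number of markers that rose was 14 without replicate A, 8 without replicate B, 0 without replicate C, 0 or 1 without a 29 °C library and 0 in the 6 WT libraries alone, so it depended on the libraries used. At an unadjusted p-value below 0.05 it was 13 with all libraries, 11 without replicate C and 9 in the 6 WT libraries, and DESeq2 called 6 on 12 and 3 on 6 libraries. *TIP2;3*, an aquaporin known from roots, was at 90.3, 1.87 and 25.9 CPM at 23 °C and 176, 206 and 169 CPM at 29 °C. *TIP2;2*, another of these channels, was at 229, 12.4 and 88.8 CPM at 23 °C and 504, 572 and 458 CPM at 29 °C. Both were lowest in replicate B and highest at 29 °C, and both were named after their values had been seen. Their differences did not pass the test (adjusted p = 0.0773 and 0.0432) and passed without replicate A. The sum of the 10 green shoot markers was 42900 to 49300 CPM at 23 °C and 40200 to 44100 CPM at 29 °C. Markers of root and shoot were detected in each library, but the root markers at unequal levels. The median root marker was at 9.88, 0.117 and 5.16 CPM at WT 23 °C and 12.7 to 13.7 CPM at 29 °C. It was at 17.7 to 22.1 CPM in OE *APOLO-1* and 13.4 to 13.7 CPM in *vim1-3*. The part of the root in the aquaporin increase was not tested.

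**Figure D4:**
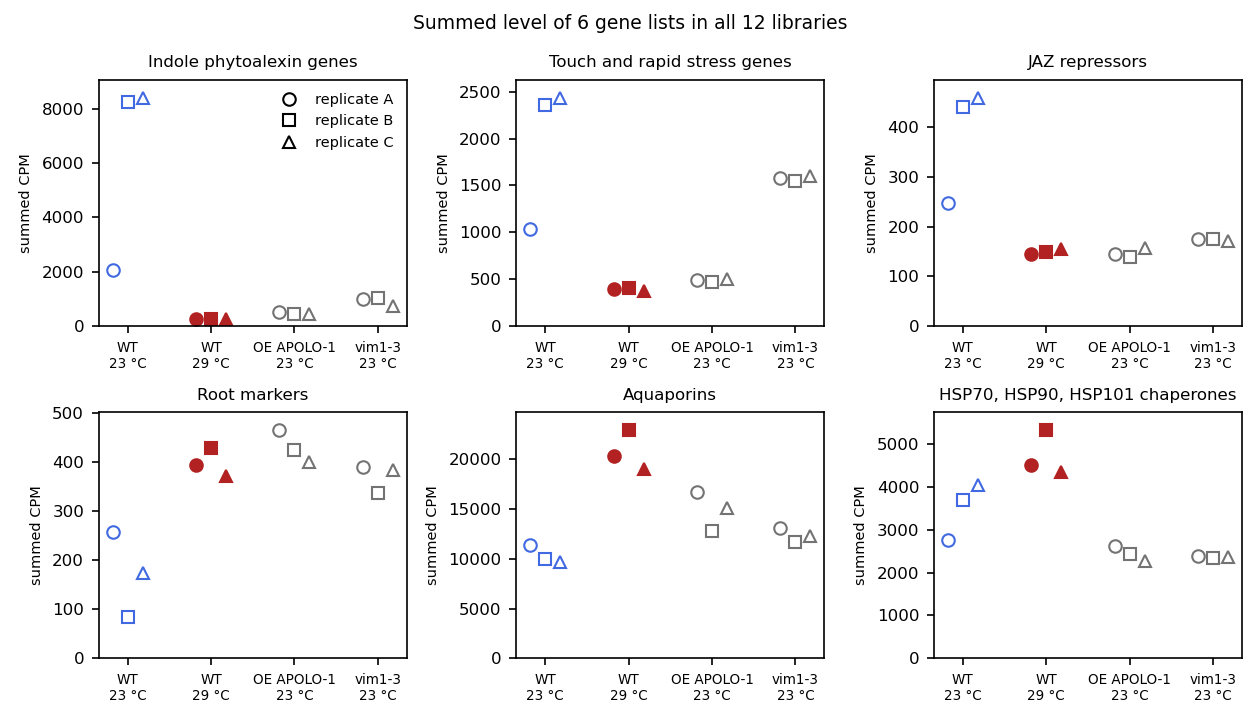
Summed level (CPM) of the tested members of 6 gene lists in each of the 12 libraries, 1 symbol per library with a shape for each replicate letter, for WT at both temperatures and the OE *APOLO-1* and *vim1-3* lines. The indole phytoalexin sums are 2060, 8230 and 8380 CPM in WT at 23 °C and between 242 and 255 CPM at 29 °C, and the root marker sum is lowest in WT 23 °C replicate B (84.5 CPM).

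Of the 12 upregulated genes with the widest gap between the nearest libraries of both groups, 7 are annotated as late embryogenesis abundant (LEA), dehydrin or desiccation proteins, which protect cells during drying in the seed. AT2G42560, a LEA protein gene, was at 0.623, 0.0585 and 0.48 CPM at 23 °C and 10.7, 16.9 and 11.8 CPM at 29 °C. The levels at 23 °C were under 1 CPM in each replicate and lowest in replicate B, and the 29 °C levels were all above 10 CPM (log2 fold change 5.06, SE 0.57, adjusted p = 9.19e-05). *LEA7* (AT1G52690) started from a higher level, 16.9, 11.5 and 8.29 CPM at 23 °C and 86.4, 135 and 105 CPM at 29 °C, and rose by a log2 fold change of 3.12 (SE 0.25, adjusted p = 2.1e-05). AT1G54870, annotated as an NAD(P)-binding protein, was at 5.03, 0.176 and 3.36 CPM at 23 °C and 42.7, 61.5 and 49.5 CPM at 29 °C. Here replicate B again was the lowest at 23 °C, and replicates A and C lay close together. AT1G04560, of the AWPM-19-like family, rose from 0.451 ± 0.379 to 12.8 ± 2.05 CPM, the dehydrin gene AT2G21490 from 0.562 ± 0.369 to 11.9 ± 2.56 CPM, AT3G53040 from 2.71 ± 2.27 to 45.4 ± 9.07 CPM and AT3G17520 from 7.18 ± 5.88 to 84.6 ± 24 CPM. *M17*, of which 43.9% of 75-base stretches occur elsewhere in the genome, rose from 1.68 ± 1.42 to 19.7 ± 3.62 CPM and is uncertain for this reason. Outside the seed proteins, AT5G12110, annotated as a translation elongation factor 1-beta, rose from 6.34 ± 2.03 to 68.8 ± 2.49 CPM (log2 fold change 3.42, SE 0.21, adjusted p = 4.17e-06).

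Of all 50 tested seed maturation genes 23 rose and 5 fell, with a median log2 fold change of 1.90 (1.22, 3.27 and 2.01 against replicates A, B and C). The number that fell was 6 without replicate A, and the number that rose was 29 without replicate A, 25 without replicate B and 14 without replicate C, and 9 in the 6 WT libraries alone. Of the 7 seed or embryo markers, which are also in the seed maturation list, 2 rose. With edgeR 0 did without replicate C or any 1 of the 29 °C libraries, where 2 were at an unadjusted p-value below 0.05, and DESeq2 on 12 libraries called 2. The markers summed to 12.7, 1.46 and 4.32 CPM at 23 °C and to between 24.8 and 40.7 CPM at 29 °C. In OE *APOLO-1* they summed to 32.4, 3.73 and 19 CPM and in *vim1-3* to 5.79, 8.03 and 6.04 CPM, both at 23 °C. *OLEO2*, an oil body protein, was at 2.54, 0 and 0.961 CPM at 23 °C and 11, 16.7 and 10.8 CPM at 29 °C, and *EM6* rose as well (log2 fold change 2.67). These are low levels in every library, and replicate A was the highest of the WT 23 °C libraries. The members that fell included AT1G15415, at 3.4, 20.4 and 22.1 CPM at 23 °C and 0.117, 0.0553 and 0 CPM at 29 °C, with 249 times fewer counts per effective library size at 29 °C (95% counting interval 84.7 to 1210), and *M10*, from 6.36 ± 5.01 to 0.106 ± 0.0136 CPM. Abscisic acid, the hormone that governs these genes in seeds, had 1 of 23 genes of its own list up and 2 down, and 3 up and 8 down without replicate A. *RD29B*, an abscisic acid response gene, was at 16.8, 20.4 and 18.9 CPM at 23 °C and 69.9, 109 and 81.2 CPM at 29 °C, without overlap (log2 fold change 2.22, SE 0.15, adjusted p = 5.05e-06). *PYL6*, a receptor, fell from 21.2 ± 4.12 to 5.68 ± 0.567 CPM (log2 fold change -1.89) and *CYP707A3*, which degrades the hormone, fell from 8.8 ± 1.85 to 3.89 ± 0.57 CPM.

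The promoter window of AT1G04560 (chr1:1244697-1244996, plus strand, TAIR10.1, RefSeq) is shown because this gene, which is not a member of the seed maturation list, was among the 12 upregulated genes with the widest gap and holds the motifs counted below. Capitals mark CACGTG, the G-box, and ACGTGTC or its reverse complement GACACGT, an element like the one that abscisic acid factors are known to bind. The first run of capitals holds 1 G-box and 2 overlapping copies of the other element.
AT1G04560: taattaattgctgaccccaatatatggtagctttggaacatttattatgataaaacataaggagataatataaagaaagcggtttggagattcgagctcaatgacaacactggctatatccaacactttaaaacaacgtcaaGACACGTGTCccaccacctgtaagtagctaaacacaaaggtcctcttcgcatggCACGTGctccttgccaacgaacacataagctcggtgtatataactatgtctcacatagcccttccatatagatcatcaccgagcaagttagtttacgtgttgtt
The letters ACGTGTC, on either strand, occurred in 5.05% of all windows, 7.62% of the windows of upregulated genes and 46% of those of the seed maturation genes. The G-box, which can share letters with them, occurred in 8.84%, 11.4% and 42%.

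Chaperones changed in both directions. Of 29 chaperones of the HSP70, HSP90 and HSP101 classes and their partners 13 rose and 4 fell, with a median of 0.40 (0.75, 0.32 and 0.23 against A, B and C). *MBF1C*, a coactivator of the heat response, was at 16.5, 37.2 and 42 CPM at 23 °C and 96.2, 126 and 82.9 CPM at 29 °C. The 29 °C levels exceeded the highest 23 °C level, while replicate A was at 16.5 CPM and replicates B and C at 37.2 and 42 CPM (log2 fold change 1.69, SE 0.29, adjusted p = 0.00144). *ROF2*, a peptidyl-prolyl isomerase that partners HSP90, rose with the same order of libraries (log2 fold change 1.56), and *HSP90.5*, the plastid HSP90, rose from 87.5 ± 2.63 to 233 ± 6.54 CPM with replicate A level with B and C (log2 fold change 1.42, SE 0.07, adjusted p = 3.33e-06, named after its values had been seen). *Hsp70-2* and *BIP3*, the endoplasmic reticulum HSP70 of stress, fell (log2 fold changes -2.21 and -1.64). *HSP101*, required for survival of severe heat, was at 11.2, 34 and 43 CPM at 23 °C and 25.2, 28.5 and 23.2 CPM at 29 °C. Its 29 °C levels lay between replicate A and replicates B and C, so the sign of the difference depended on the 23 °C library, and the gene did not pass the test (log2 fold change -0.17, SE 0.36, adjusted p = 0.744, named after its values had been seen). Of 18 small heat shock proteins 1 rose and 2 fell, and without replicate A 2 and 5 did. *HSP18.5* rose from 34.8 ± 3.39 to 96.1 ± 6.81 CPM (log2 fold change 1.46, SE 0.10, adjusted p = 5.36e-06). *HSP17.6II* fell from 6.68 ± 3.96 to 0.673 ± 0.117 CPM and *HSP15.4* from 79.8 ± 30.9 to 34 ± 2.09 CPM. The median of the list was -0.17, and it was 0.75 against replicate A, -0.36 against B and -0.53 against C. The median level of its members was 2.47, 7.96 and 7.45 CPM at WT 23 °C and 2.5 to 3.24 CPM at 29 °C. It was 0.635 to 1.73 CPM in OE *APOLO-1* and 0.852 to 1.15 CPM in *vim1-3*, both at 23 °C. Among 18 heat shock factors 2 rose and 4 fell, with *HSFB1* (log2 fold change -1.74), *HSFA4A* (log2 fold change -1.31) and *HSFA8* (log2 fold change -1.12) down and *HSFB2B* (log2 fold change 0.78) up. Without replicate A 3 of 19 factors rose and 5 fell, and without replicate B edgeR called 0 up, with 3 at an unadjusted p-value below 0.05, and 3 down, while DESeq2 on 12 libraries called 3 in each direction. Without replicate A 14 chaperones rose and 8 fell, and without replicate B 8 rose and 2 fell. In the 6 WT libraries alone edgeR called 3 up and 0 down, with 15 and 5 at an unadjusted p-value below 0.05. DESeq2 on these 6 libraries called 10 and 4. The chaperones summed to 2750, 3680 and 4040 CPM at WT 23 °C and 4350 to 5310 CPM at 29 °C. In OE *APOLO-1* and *vim1-3*, both at 23 °C, they summed to 2260 to 2620 and 2340 to 2390 CPM.

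Of 16 genes of indole glucosinolate and camalexin metabolism, which make antimicrobial compounds from tryptophan, 14 fell and the other 2 did not pass, with a median log2 fold change of -4.44 (-2.91, -4.72 and -4.93 against replicates A, B and C). *PAD3* (AT3G26830), which completes camalexin synthesis, was at 44, 356 and 398 CPM at 23 °C and 0.933, 1.11 and 1.22 CPM at 29 °C. *CYP71A12*, which acts before it, was at 128, 654 and 761 CPM at 23 °C and 2.04, 0.775 and 2.9 CPM at 29 °C. Both genes were under 3 CPM in every 29 °C library, and in replicate A they stood well below replicates B and C but far above 29 °C (log2 fold change -7.91, SE 0.93, adjusted p = 0.000251, and -8.04, SE 0.89, adjusted p = 0.000179). *CYP82C2*, which makes a related cyanogenic defence compound, had 11197 counts in the 23 °C libraries and 2 in the 29 °C libraries, a ratio of 6930 per effective library size (23 °C over 29 °C, 95% counting interval 1920 to 57200). *CYP71A13*, the paralog of *CYP71A12*, gave a ratio of 2160 (387 to 85300). These intervals cover counting error only. *FOX1* and *GSTF6*, an oxidoreductase and a glutathione transferase of the same pathways, fell from 394 ± 253 to 2.31 ± 1.22 CPM and from 2164 ± 1173 to 18.8 ± 4.93 CPM. The summed level of the list was 2060, 8230 and 8380 CPM at 23 °C, 242 to 255 CPM at 29 °C, 430 to 527 CPM in OE *APOLO-1* and 732 to 1030 CPM in *vim1-3*. Replicates B and C of WT 23 °C were thus the libraries with the high level among all 12, and the other 23 °C groups were below them. In the fit without replicate A 14 genes fell and 1 rose, and 12 fell in the 6 WT libraries alone.

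The promoter window of *CYP82C2* (chr4:15462100-15462399, plus strand, TAIR10.1, RefSeq) is shown because this gene had the highest ratio of those given here. Capitals mark TTGACC and its reverse complement GGTCAA, the W-box that WRKY factors are known to bind, which was searched as TTGACC or TTGACT on both strands.
CYP82C2: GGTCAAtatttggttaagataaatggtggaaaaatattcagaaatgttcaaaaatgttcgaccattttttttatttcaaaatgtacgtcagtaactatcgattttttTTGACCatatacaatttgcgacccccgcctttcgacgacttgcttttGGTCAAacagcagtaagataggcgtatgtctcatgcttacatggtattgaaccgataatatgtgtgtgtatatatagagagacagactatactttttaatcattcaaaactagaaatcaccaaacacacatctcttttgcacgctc
The W-box letters occurred in 33.1% of all windows, 45.9% of the windows of downregulated genes and 28.8% of those of upregulated genes. Among downregulated genes with at least a 2-fold change the share was 51%. By list it was 57.1% for touch and rapid stress genes and 41.7% for *JAZ* genes. It was 37.5% for indole phytoalexin genes, 35.6% for WRKY genes and 25% for salicylic acid genes, so the letters were not equally frequent in the lists that fell.

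Other downregulated genes among the 12 with the widest gap were of several kinds. *DIN11*, an oxygenase gene, was at 207, 587 and 596 CPM at 23 °C and 0.525, 0.498 and 0.408 CPM at 29 °C. AT3G16530, a legume lectin gene, was at 218, 1059 and 988 CPM at 23 °C and 5.07, 3.98 and 5.22 CPM at 29 °C. The levels at 29 °C were within a narrow range, whereas replicate A was below replicates B and C in both genes (log2 fold change -9.92, SE 0.52, adjusted p = 4.17e-06, and -7.30, SE 0.59, adjusted p = 3.79e-05). *PLA2A*, a lipid hydrolase of the defence response, fell from 265 ± 144 to 1.83 ± 0.713 CPM. *GSTU12*, a glutathione transferase, fell from 117 ± 76.6 to 0.126 ± 0.0942 CPM, *PRXCA*, a cell wall peroxidase, from 193 ± 153 to 0.141 ± 0.0324 CPM, and AT3G23550, a MATE efflux protein gene, from 64 ± 32.1 to 0.251 ± 0.15 CPM.

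Genes of touch and rapid stress, which respond within minutes to mechanical stimulation, fell in 18 of 21 cases, with a median of -3.01 (-1.85, -3.31 and -3.42 against A, B and C). *CML37* (AT5G42380), a calmodulin-like protein, was at 9.11, 53.9 and 52.8 CPM at 23 °C and 0.0583, 0.166 and 0.181 CPM at 29 °C. Replicate A lay between replicates B and C and the 29 °C libraries, and the groups did not overlap (log2 fold change -8.03, SE 0.89, adjusted p = 0.000157). *MYB15* was at 13.5, 34.2 and 39.3 CPM at 23 °C and 0.175, 0 and 0.181 CPM at 29 °C, and *ERF2* fell from 42.3 ± 19.6 to 1.5 ± 0.296 CPM (log2 fold change -4.79, SE 0.46, adjusted p = 6.28e-05). *ZAT12*, a zinc finger factor of many stresses, fell from 80.1 ± 43.7 to 5.87 ± 0.667 CPM. The summed level was 1030, 2360 and 2430 CPM at 23 °C, 377 to 406 CPM at 29 °C, 474 to 499 CPM in OE *APOLO-1* and 1550 to 1600 CPM in *vim1-3*. Without replicate A 19 of the 21 genes fell, and in the 6 WT libraries 12 did. Of 59 WRKY factors, which regulate defence and of which *WRKY33*, *WRKY40* and *WRKY53* are also in the touch list, 23 fell and 3 rose, and without replicate A 28 of 61 fell and 8 rose. The WRKY genes summed to 902, 1370 and 1510 CPM at 23 °C and 673 to 721 CPM at 29 °C. In OE *APOLO-1* and *vim1-3* they summed to 723 to 747 and 1070 to 1080 CPM. *WRKY46* was at 3.26, 12.2 and 8.41 CPM at 23 °C and 0.0583, 0.221 and 0.363 CPM at 29 °C and *WRKY8* at 3.74, 10.4 and 7.33 CPM at 23 °C and 0.233, 0.277 and 0.454 CPM at 29 °C, with no overlap in either gene (log2 fold change -5.10, SE 0.63, adjusted p = 0.000139, and -4.41, SE 0.44, adjusted p = 3.69e-05). *WRKY55* had 0 counts in each 29 °C library, at least 9.04-fold lower than in the lowest 23 °C library, with a floor of 3 counts per library. *WRKY30* fell from 3.64 ± 2.33 to 0.117 ± 0.0618 CPM.

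Of the 12 *JAZ* genes, repressors that jasmonate itself induces, 8 fell and the other 4 did not pass, with a median of -1.33 (-0.99, -1.49 and -1.44 against A, B and C). *JAZ1* (AT1G19180) was at 52.1, 142 and 164 CPM at 23 °C and 14, 11.7 and 12 CPM at 29 °C. *JAZ5* was at 3.36, 8.49 and 10.7 CPM at 23 °C and 0.117, 0.166 and 0.181 CPM at 29 °C. In both genes replicate A was the 23 °C library nearest to 29 °C, and no library of one group reached the other (log2 fold change -3.24, SE 0.36, adjusted p = 0.000139, and -5.49, SE 0.57, adjusted p = 4.31e-05). *JAZ10* fell from 8.46 ± 4.14 to 1.53 ± 0.149 CPM, and *JAZ8* gave a ratio of 58.8 (15.8 to 492) between the groups. Of 19 jasmonate biosynthesis genes 8 fell and 1 rose, and without replicate A 13 and 1 did. *LOX2*, the plastid lipoxygenase of the first step, was at 24.8, 205 and 153 CPM at 23 °C and 5.71, 4.26 and 5.85 CPM at 29 °C. *AOC1*, an allene oxide cyclase, was at 38.2, 86.5 and 77.5 CPM at 23 °C and 4.84, 4.21 and 6.12 CPM at 29 °C. Both were lower at 29 °C than in each single 23 °C library, and replicate A was the lowest of these (log2 fold change -4.59, SE 0.68, adjusted p = 0.000874, and -3.72, SE 0.30, adjusted p = 2.1e-05). *LOX4* and *OPCL1* fell as well (log2 fold changes -4.46 and -2.30). The median of the biosynthesis list was -0.98, and it was 0.05 against replicate A, -1.63 against B and -0.94 against C, so it depended on the 23 °C library. Of 11 genes of jasmonate output 6 fell and 1 rose, and without replicate A 8 of 12 fell and 1 rose. *PDF1.2*, a plant defensin, had 0 counts in each 29 °C library and was at least 38.1-fold lower than in the lowest 23 °C library. *AACT1*, an acyltransferase, was at least 163-fold lower by the same rule, and *NATA1*, an acetyltransferase, and *JR2* gave ratios of 3390 (938 to 28000) and 326 (57.9 to 12900). Without replicate A 9 *JAZ* genes fell and 1 rose. In the 6 WT libraries alone 6 *JAZ*, 3 biosynthesis and 1 output genes fell. The *JAZ* genes summed to 248, 441 and 458 CPM at 23 °C and 145 to 154 CPM at 29 °C. In OE *APOLO-1* and *vim1-3*, both at 23 °C, they summed to 139 to 157 and 170 to 176 CPM. The biosynthesis genes summed to 1010, 2090 and 1850, 848 to 954, 722 to 779 and 800 to 843 CPM in the same order of groups. The output genes summed to 182, 517 and 507, 150 to 194, 132 to 146 and 124 to 139 CPM.

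Of 24 salicylic acid genes 16 fell and the other 8 did not pass, with a median of -1.12, whereas 19 fell and 2 rose without replicate A and 7 fell in the 6 WT libraries alone. *CBP60G*, a factor that activates salicylic acid synthesis, was at 19.3, 37.6 and 41.8 CPM at 23 °C and 2.22, 1.83 and 1.45 CPM at 29 °C (log2 fold change -4.16, SE 0.35, adjusted p = 2.41e-05). The 23 °C values were all above the 29 °C values, and replicate A was the lowest of the 23 °C values. *SARD1*, its partner, fell from 2.62 ± 0.903 to 0.261 ± 0.0239 CPM. *PBS3*, which acts in salicylic acid synthesis, and *PR5*, a pathogenesis-related protein, gave ratios of 81.7 (22.2 to 682) and 68.7 (18.6 to 574). The salicylic acid genes summed to 473, 746 and 689 CPM at 23 °C and 280 to 292 CPM at 29 °C. In OE *APOLO-1* and *vim1-3*, both at 23 °C, they summed to 329 to 351 and 508 to 510 CPM. Of 17 aliphatic glucosinolate genes, which make methionine-derived defence compounds, 12 fell and the other 5 did not pass, with a median of -2.19 (-0.79, -2.66 and -1.95 against A, B and C). *SOT17*, a sulfotransferase of the pathway, was at 17, 75.1 and 66.3 CPM at 23 °C and 3.38, 1.55 and 2.63 CPM at 29 °C. *CYP83A1* fell from 6.35 ± 5 to 0.513 ± 0.211 CPM. Replicate A was the lowest at 23 °C in both. The number of genes that fell was 16 of 18 without replicate A, 7 without replicate B, 7 without replicate C and 2 in the 6 WT libraries. The aliphatic glucosinolate genes summed to 203, 492 and 415 CPM at 23 °C and 132 to 138 CPM at 29 °C. In OE *APOLO-1* and *vim1-3* they summed to 156 to 169 and 164 to 175 CPM.

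Several lists that could have moved with temperature held few calls in the fit of 12 libraries and more without replicate A. The calls over all genes also rose in number without it, to 15.2% upregulated and 18.9% downregulated, and the counts are to be read against these shares. Without replicate A 4 of 24 circadian clock genes rose and 2 fell, and 4 of 19 cold-regulated genes rose and 5 fell. Among 49 nuclear photosynthesis genes 3 rose and 4 fell, and among 25 chlorophyll genes 2 rose and 6 fell. In the H2A.Z list 1 of 11 genes rose and 2 fell without it, in the flavonoid list 1 of 13 rose and 2 fell, and 3 of 14 flowering genes fell. Lipid desaturases rose in 4 of 10 cases without replicate A, but already in 3 of 10 with it (30%, against 7.88% of all genes). With edgeR 2 rose without replicate B, 1 without replicate C, 0 or 1 without a 29 °C library and 0 in the 6 WT libraries alone. In these 6 libraries 4 were higher at an unadjusted p-value below 0.05, and DESeq2 called 3 up on 12 and on 6 libraries. The values below are from the fit of 12 libraries. Of 24 circadian clock genes *LHY*, a morning factor, fell from 3.03 ± 1.94 to 0.396 ± 0.0906 CPM (log2 fold change -2.91, SE 0.46, adjusted p = 0.000554), *LKP2* rose (log2 fold change 0.44), and the other 22 did not pass. Of 19 cold-regulated genes *ERD10* rose from 54.4 ± 9.57 to 99.2 ± 18.8 CPM, whereas *COR15B* fell from 2.64 ± 1.49 to 0.165 ± 0.149 CPM and *ZAT12* fell as well. Of 49 nuclear photosynthesis genes 1 rose and 2 fell: *LHCA1*, an antenna protein, was at 7694, 7341 and 7043 CPM at 23 °C and 11015, 11783 and 9956 CPM at 29 °C, and *RBCS1A*, a small subunit of Rubisco, fell from 9886 ± 1467 to 6846 ± 223 CPM. Their levels stood among the highest of all named genes, and their fold changes were small (log2 fold changes 0.57 and -0.53). Of 25 chlorophyll biosynthesis genes *PORC* rose (log2 fold change 0.48), *HEMA2* (log2 fold change -1.63) and *CHLG* (log2 fold change -0.35) fell, and *PORA*, the protochlorophyllide reductase of dark-grown seedlings, was at 0.671, 19 and 7.93 CPM at 23 °C and 0, 0.0553 and 0.0454 CPM at 29 °C, with a ratio of 251 (68.9 to 2080). For *PORA* replicate A was far below replicates B and C. Of 10 lipid desaturases 3 rose, with *ADS1* at 7.19, 30.2 and 16.6 CPM at 23 °C and 64.5, 58.9 and 63.4 CPM at 29 °C (log2 fold change 1.79, SE 0.38, adjusted p = 0.00495). *FAD2*, the main desaturase of the endoplasmic reticulum, rose as well (log2 fold change 0.49). None of 11 genes of the H2A.Z pathway, which is known to take part in temperature sensing, passed the edgeR test or DESeq2, and 3 of them had an unadjusted p-value below 0.05. None of 12 flavonoid genes passed the edgeR test, 4 had an unadjusted p-value below 0.05, and DESeq2 on 12 libraries called 2. Of 14 flowering genes *FLM* (log2 fold change -0.93) and *SMZ* (log2 fold change -0.65), both repressors of flowering, fell. This share of 14.3% was near the 12.8% of all genes. In the 6 WT libraries alone edgeR called 0 of 13 down, with 4 at an unadjusted p-value below 0.05, and DESeq2 called 2.

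The genes that the study manipulated were described at both temperatures. *VIM1* (AT1G57820, chromosome 1, 21413981 to 21418115 of TAIR10.1), a protein that binds methylated cytosine, was at 7.05, 3.98 and 6.73 CPM at 23 °C and 8.86, 10.1 and 10.9 CPM at 29 °C. Every 29 °C library was above every 23 °C library, but the difference did not pass the threshold (log2 fold change 0.76, SE 0.23, adjusted p = 0.0223). It passed without replicate A (adjusted p = 0.00202). *VIM2* fell from 1.83 ± 0.471 to 0.476 ± 0.073 CPM (log2 fold change -1.90, SE 0.34, adjusted p = 0.00125), with 56.6% of its 75-base stretches found elsewhere in the genome, so that its counts are uncertain. *VIM3* did not pass, at 4.84, 2.52 and 4.44 CPM at 23 °C and 4.49, 5.59 and 5.26 CPM at 29 °C (log2 fold change 0.39, SE 0.24, adjusted p = 0.225). *VIM6* rose from 2.66 ± 0.031 to 5.95 ± 0.986 CPM (log2 fold change 1.16). Of the 31 tested genes of DNA methylation 2 rose and 2 fell, with a median of 0.13, and without replicate A 5 of 32 rose and 2 fell. *DML2*, a demethylase, fell (log2 fold change -0.77) and *SUVH4*, a histone methyltransferase of the pathway, rose (log2 fold change 0.47). *APOLO* (AT2G34655) had a log2 fold change of -6.23 (SE 1.95, adjusted p = 0.0341) with replicate A, and without it 2 and 1 counts at 23 °C stood beside 2, 8 and 5 at 29 °C, so that its direction rested on 1 library.

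The letters of 7 short motifs were counted in the windows of all tested genes. Of the motifs that stood more often in the windows of upregulated genes, TGTCTC, the auxin element, occurred in 17.3% against 13.7% of all windows, and in 20.4% of windows of genes that rose by at least 2-fold. The G-box was at 14.5% there and the E-box at 19.9%. The heat shock element, searched as GAANNTTC, occurred in 10.5% of upregulated, 16.3% of downregulated and 11.4% of all windows, and in 20.7% of the 29 chaperone windows. The evening element AAATATCT was at 4.61%, 7.74% and 5.86%. These shares are descriptions, since genes of a family share promoter sequence.

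**Figure D5:**
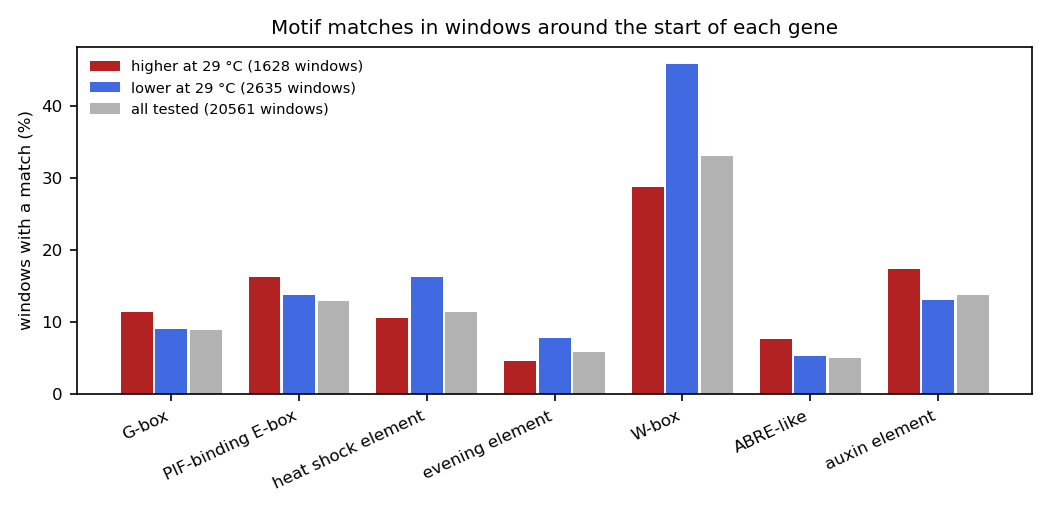
Share (%) of 300-base promoter windows that hold each of 7 motifs on either strand, as bars for upregulated genes (red), downregulated genes (blue) and all tested genes (gray). The W-box stands at 33.1% in all windows, 28.8% in those of upregulated and 45.9% in those of downregulated genes, and the auxin element at 13.7%, 17.3% and 13.1%.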

How the data were processed

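RNA-Seq of whole seedlings was performed by the authors, in 75-base reads that were trimmed (Trimmomatic 0.36), freed of ribosomal RNA (SortMeRNA), aligned (STAR 2.5.2b) and counted over exons of Araport11 genes with featureCounts (Subread 1.6.5). The authors deposited raw counts per gene, 1 table per library, without normalization. The tool versions come from the submitters' processing notes, and the strand setting of the counting is not given in the sources used here, so reads of overlapping and antisense genes could be mixed.

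Counts of all 12 libraries were filtered with filterByExpr by group, scaled with TMM factors and fitted in edgeR 4.0.16 (R 4.3.3) with 1 coefficient per group, so that OE *APOLO-1* and *vim1-3* entered the estimate of the spread. WT 29 °C was compared with WT 23 °C by glmQLFit (robust) and glmQLFTest, with Benjamini-Hochberg adjustment over the 20664 genes tested and a threshold of 0.01. The standard error is the size of the log2 fold change over the square root of F. The test was also run on simulated counts with the same spread in every group. It recovered 180 of 198 changed genes there, with 4 false calls. The simulation held no library like WT 23 °C replicate A and no group with a wider spread, so it does not cover these features of the data. Replicate letters were not used to pair the libraries in the main fit. Deviations from the group means correlated at 0.0556 (A), -0.129 (B) and -0.17 (C) between libraries of the same letter. Between different letters they ran from -0.139 to 0.232. With 3 libraries per group these values cannot show whether libraries of a letter shared a batch.

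The comparison, the gene lists and the named genes were chosen with earlier results of these data known. Named genes are those the study followed, the 12 upregulated and 12 downregulated genes with the widest gap between the nearest libraries on log2(CPM + 1) at a mean of at least 10 CPM, up to 4 members with the largest change per list at a mean of at least 1 CPM, and members of lists of 20 or fewer genes that did not pass. Symbols, positions and promoter windows were taken from the RefSeq TAIR10.1 genome, in which 37051 of 37336 genes were found. A gene at 0 counts was set to a floor of 3 counts per library for a lower bound, and counting intervals are 95% exact intervals on summed counts. For shared sequence, each run of 75 bases within exons was looked up in the rest of the genome. The settings changed were the scaling (RLE or upper-quartile factors), the tool (DESeq2 1.42.0 on 12 or 6 libraries), edgeR on the 6 WT libraries, other filters, the replicate letter as a block, each library left out, a threshold of 0.05 and a minimum of 2-fold.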

Additional observations from a re-analysis of the deposited data

How the results depend on the processing

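With the main settings 1628 genes were upregulated and 2636 downregulated. RLE factors gave 1655 and 2567, upper-quartile factors 2270 and 2166, DESeq2 on 12 libraries 2172 and 3101, DESeq2 on the 6 WT libraries 1093 and 2190, no filter 1663 and 2486, and at least 10 counts in every library 1608 and 2083. edgeR on the 6 WT libraries alone gave 321 and 688, a threshold of 0.05 gave 3225 and 4004, and a minimum of 2-fold gave 593 and 1502. Leaving out 1 library at a time gave from 987 (without WT 29 °C replicate B) to 3179 (without WT 23 °C replicate A) upregulated genes and from 1709 (without WT 29 °C replicate A) to 3956 (without WT 23 °C replicate A) downregulated genes, and without WT 29 °C replicate C 1029 genes were upregulated. edgeR on the 5 WT libraries without WT 23 °C replicate A, chosen after seeing the data, gave 2062 and 3054. The replicate block gave 1327 and 2237, although the letters are not stated to mark a shared batch, and 18 named genes lost their call under it. No gene was called in opposite directions under any of these settings and the main one. The call of a named gene was kept for 145 of 146 with RLE factors, 144 with DESeq2 on 12 libraries and 142 without WT 23 °C replicate A, whereas 85 lost it in the 6 WT libraries alone. *APOLO*, which was not called, had a log2 fold change of -6.23, and between -6.8361 and 1.105 with 1 library left out, of which 1.105 was without WT 23 °C replicate A. Replicate C at 23 °C held the lowest total, 8824476 counts, and limits the genes with few counts. The causes of these differences were not tested.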
